A study of Mus musculus with 1152 samples.

Results

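The cytosolic ribosomal protein genes were taken from a table of 23168 genes as every row whose symbol began with Rps or Rpl and a digit, with Rplp0, Rplp1, Rplp2 and Rpsa, and without the Rps6k kinases and the rows marked -ps as pseudogenes. The rule gave 91 genes. Of these, 77 were core proteins of the ribosome, 31 of the small and 46 of the large subunit, 13 were paralogues or further copies, and 1, Rps19bp1, encodes a protein that binds a ribosomal protein and is not a subunit. Ribosomal proteins with other symbols, such as Fau and Rack1, were counted apart, as were the rows marked -ps. The study profiled lymphatic endothelial cells (LECs) of the nasopharyngeal lymphatic plexus, a vessel bed in the mucosa of the nasopharynx, from aged C57BL/6 mice (C57BL/6J in the methods) of both sexes that carried no transgene or treatment named in the labels. The mucosa of several mice was pooled, dissociated with enzymes, sorted as CD31+ PDPN+ cells and sequenced cell by cell with Smart-seq3, a method that reads along the whole transcript. The table held 56.9% of the labelled cells, all of a single group, with no animal, pool or sort named for any cell, so no comparison below has a replicate or a test, and every spread is a spread between cells. The label was set beside LEC genes. Flt4 and Mmrn1 had reads in 100% of cells, Prox1 in 97.1% and Ccl21a, the lowest of the 8 on the list, in 87.7%. Pdpn had reads in 94.8% and Pecam1 in 99.2%, but these encode the markers of the sort and are no independent check. Of the 5 epithelial genes on the list 3 were measured, with reads in at most 0.610% of cells. The leukocyte genes had reads in at most 12.8% of cells. Of the 5 fibroblast genes, Dcn had reads in 30.03% of cells and the others in at most 2.44%.

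A ribosome is built from ribosomal RNA and a set of proteins, each present in a single copy apart from the stalk proteins. The genes lie scattered over the chromosomes, yet their mRNAs are made in proportion and most begin with a terminal oligopyrimidine (TOP) tract, a C followed by pyrimidines at the cap, through which mTOR signalling and Larp1 control their translation. Several of the proteins also act outside the ribosome, and many of the genes have left processed copies in the genome that resemble their mRNAs closely. In endothelium they belong to the most abundant messages, so that their sum is often used as a measure of RNA quality or of growth.

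Start sequences were read from RefSeq promoters (build GRCm38.p6), which matched 67 of the 91 genes, 57 of them core members. The windows below run from 10 bases before to 20 bases after the annotated start in the direction of transcription, and capitals mark a C with at least 4 further pyrimidines that begins within 10 bases of that start. Rps6, Rpl35, Rps27 and Rplp2 are shown because the tract begins at the annotated start itself, Rps27l and Rpl22l1 as paralogues with a shifted tract, and Rpl24, Rpl41 and Rps19bp1 as genes without it in this window. Their positions were chr4:86857348-86857377 on the minus strand for Rps6, chr2:39005112-39005141 on the minus strand for Rpl35, chr3:90213629-90213658 on the minus strand for Rps27, chr7:141447641-141447670 on the plus strand for Rplp2, chr9:66946076-66946105 on the plus strand for Rps27l, chr3:28805498-28805527 on the plus strand for Rpl22l1, chr16:55966265-55966294 on the plus strand for Rpl24, chr10:128549149-128549178 on the minus strand for Rpl41 and chr15:80264287-80264316 on the minus strand for Rps19bp1.
Rps6: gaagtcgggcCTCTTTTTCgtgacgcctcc
Rpl35: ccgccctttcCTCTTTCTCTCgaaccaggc
Rps27: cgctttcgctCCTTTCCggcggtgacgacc
Rplp2: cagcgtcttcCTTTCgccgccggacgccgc
Rps27l: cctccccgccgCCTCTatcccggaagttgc
Rpl22l1: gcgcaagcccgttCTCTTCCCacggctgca
Rpl24: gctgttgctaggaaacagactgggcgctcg
Rpl41: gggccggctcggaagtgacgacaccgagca
Rps19bp1: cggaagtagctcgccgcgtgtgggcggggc

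The tract began exactly at the annotated start in 13 of 57 core members, or 22.8%, against 3.02% of the 12746 genes of the table that had a promoter sequence. Within 10 bases on either side it was found in 34 of 57 core members, or 59.6%, against 37.1% of all genes. The core members with a tract within 10 bases had a median level of 10.5 reads per 10000 per kilobase, and those without it 11.6. Over the 300 bases of each promoter, on either strand, the ETS-type motif CCGGAAG was found in 24 of 57 core members, or 42.1%, against 17.1% of all genes. The YY1-type motif AAGATGG was found in 15.8% against 7.88%, and TATAAA in 10.5% against 9.67%. These matches describe the letters in the windows and name no bound factor. Annotated starts can lie some bases from the start that a cell uses, and a missing tract says only that the letters are not at the annotated place.

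Ribosomal protein genes took a median of 8.16% of the reads of a cell. The lowest cell had 1.36% and the highest 25.5%, and the middle 50% of cells lay between 6.46% and 10.001%. Small subunit genes gave a median of 3.79%, large subunit genes 4.32%, the 3 stalk genes within the latter 0.536%, and the 13 paralogues together 0.0324%. The 10 genes of the highest mean level carried 31.2% of all ribosomal protein reads. Rows marked -ps took a median of 0.196%. Their share rose with that of the members over all cells, with a Spearman rho of 0.66 and a Pearson r of 0.69 (0.68 without the 2 cells farthest from the median), and reads of members and copies share sequence.

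Core members were detected nearly throughout. A typical cell had reads for 76 of the 77 core genes and the poorest cell for 48. By gene, 75 of 77 had a read in at least 90% of cells and 8 had one in every cell, and the median core gene was detected in 99.1% of cells against 5.03% for the median gene of the table. Only 1.96% of all genes passed the same limit of 90%. The 2 core genes under it were Rpl24, at 28.2% of cells (exact 95% interval 24.8 to 31.8), and Rpl13a, at 61.4% (57.6 to 65.2). These and all further intervals are Clopper-Pearson intervals on the number of cells with a read, and cover counting error only. They treat cells as independent draws and cover no spread between animals, since no animal is named for any cell.

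**Figure D1:**
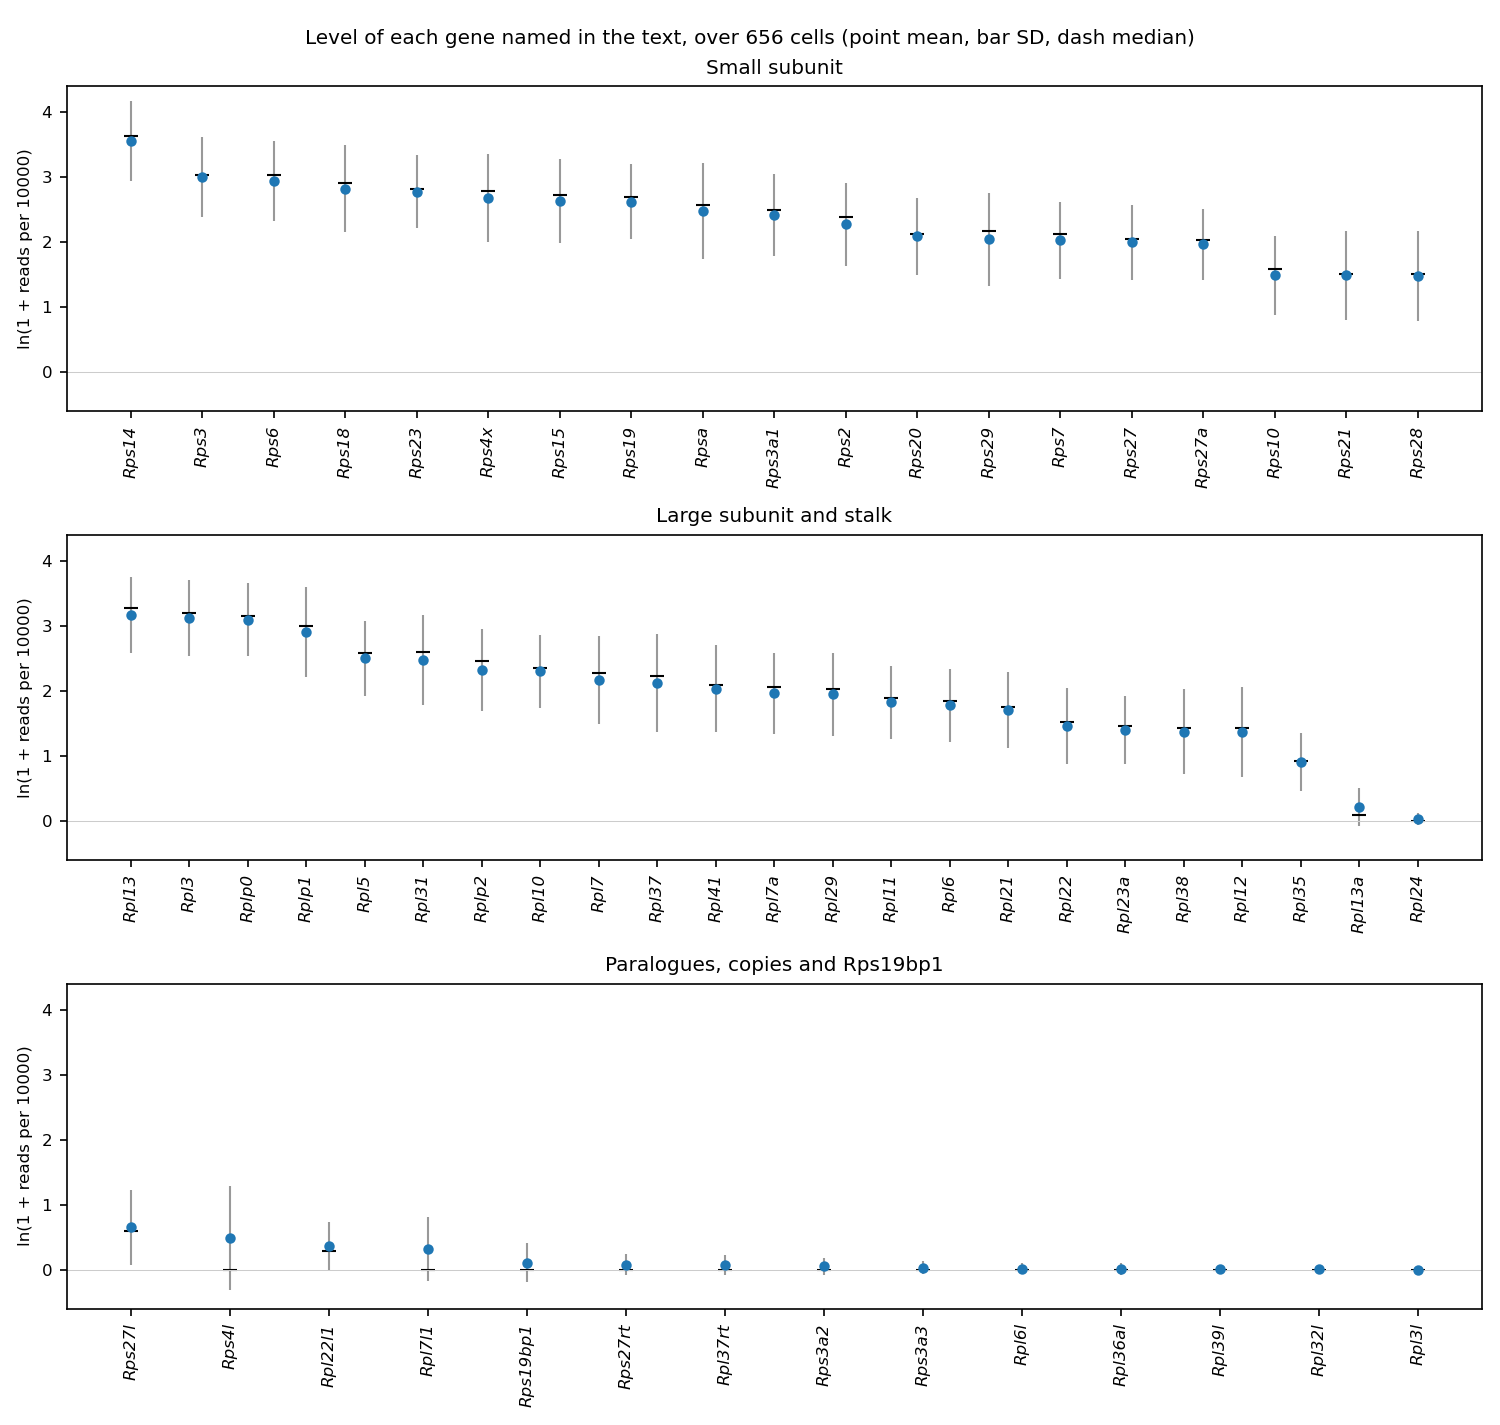
Level of the 56 genes named in the text over all cells as ln(1 + reads per 10000), with the mean as a point, the SD between cells as a bar and the median as a dash, for the small subunit, the large subunit with the stalk, and the paralogues with Rps19bp1. Rps14 stood highest at 3.55, and Rpl13a and Rpl24 lay apart from the other core genes at 0.22 and 0.03.

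On the deposited scale, the natural log of 1 plus reads per 10000, Rps14 was the highest of the small subunit genes. This protein of the platform that holds the messenger had a mean of 3.55 ± 0.61 (SD over all cells), from 0.08 in the lowest cell over a median of 3.62 to 4.76 in the highest. Among large subunit genes Rpl13 reached 3.16 ± 0.59 and Rpl3, a protein of the peptidyl transferase region, 3.11 ± 0.59. These SDs overlap, and the order of Rpl13 and Rpl3 lies well inside the spread between cells.

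Levels of different genes were compared as mean reads per 10000 per kilobase of the principal transcript. Rps14 led at 66.3, and the stalk gene Rplp1 at 42.5, Rps18 at 34.03 and Rpl13 at 33.4 were among the next. The lowest core genes per kilobase were Rpl24 at 0.0519, Rpl13a at 0.293, Rpl35 at 1.84, Rps20 at 2.27 and Rpl12 at 3.14. The place of Rps20 rests on the long annotated transcript of 3706 bases, since its level of 2.09 ± 0.59 on the log scale lay less than 1 SD below the median of the small subunit genes, 2.36. Between the 10th and the 90th percentile of core genes the level per kilobase ran from 5.89 to 27.5, a ratio of 4.67. The median was 16.03 for small and 10.1 for large subunit genes. Division by coding length gave a similar ratio, 4.59, and 7 of the 10 highest genes were shared between the 2 scales, whereas division by the merged length of all annotated exons gave 8.36.

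The low values of Rpl24 and Rpl13a are uncertain. Rpl24, a large subunit protein at the bridge to the small subunit (ENSMUSG00000098274.7, GRCm38 chr16:55966275-55971435, plus strand), had 71.5% of its exon length within the gene Gm28037 on the same strand in GENCODE M21, and 81.7% of its 50-base words recurred in other genes. Rpl13a, which also acts in silencing of mRNAs after interferon gamma (ENSMUSG00000074129.14, GRCm38 chr7:45125558-45128761, minus strand), had 59.3% of its exon length within Gm45713 and the microRNA gene Mir5121. Neither Gm28037, Gm45713 nor Mir5121 was a row of the table. Only 3 core genes had at least 50% of their exon length within another gene on the same strand. Rpl24 and Rpl13a among them had the lowest levels per kilobase of all core genes. The other, Rps10, lay over 91.6% of its length within the read-through gene RPS10-NUDT3 and was detected in 95.7% of cells, at 1.49 ± 0.61. How reads on overlapping genes or at several places were counted is not given in the sources used here, and the part of this in the low values was not tested. Sequence sharing was common among core genes, with a median of 61.2% of words and at least 50% in 51 of 77, and over the 77 genes its rho with the level per kilobase was -0.06.

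Members with roles outside the ribosome were spread over the range of levels. Rpl5 and Rpl11, which bind and block Mdm2 when ribosome assembly fails, had 2.50 ± 0.58 and 1.82 ± 0.56, and were detected in 99.8% and 98.5% of cells. Rps6, the substrate of the S6 kinases, had 2.94 ± 0.62 and was read in every cell. Rps3, which also takes part in DNA repair, had 2.999 ± 0.62, and Rpsa, known as the laminin receptor, 2.47 ± 0.74. Rps27a, made as a fusion with ubiquitin, had 1.96 ± 0.55. Rps19, the gene most often mutated in Diamond-Blackfan anaemia, had 2.62 ± 0.58, and the X-linked Rpl10 and Rps4x had 2.30 ± 0.56 and 2.68 ± 0.68. Rpl22, needed in T cell development, had 1.46 ± 0.59, and Rpl38, which acts on translation of Hox mRNAs, 1.37 ± 0.65. In the stalk, where elongation factors dock, Rplp0 had 3.09 ± 0.56, Rplp1 2.91 ± 0.69 and Rplp2 2.32 ± 0.63. None of these genes separated cells into a group with and a group without it, since each was detected in at least 95.6% of cells. Rpl13a, described above with such a role, is not among them and was read in 61.4% of cells.

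The 2 subunits moved together. Over all cells the shares of small and large subunit genes had a Spearman rho of 0.94, and a Pearson r of 0.95 on log values. Both shares come from the same libraries and total. The ratio of small to large subunit reads had a median of 0.871, a lowest value of 0.395 and a highest of 1.23, and 66 cells had more reads from the small subunit. Over the 12 blocks of 96 consecutive cell numbers, which the labels do not call plates, the median ratio stayed between 0.837 and 0.8996.

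Pairs of core genes were correlated over cells in nearly every case. Among the 75 core genes with a read in at least 90% of cells, the 2775 pairs had a median Spearman rho of 0.31, and 99.7% of pairs were above 0, whereas the other genes as widely detected had a median pairwise rho of 0.02 with 59.8% above 0. The points are cells of the same libraries and share depth and total, so these values describe the libraries. The median was 0.34 within the small subunit, 0.28 within the large and 0.31 between them. It was 0.34 among the 26 genes with under 50% of shared words, and ran from 0.14 to 0.43 over the 12 blocks. The mean rho to the other core genes was highest for Rps14, at 0.44, and was 0.41 for each of Rplp1, Rps23 and Rps15, which were among the next. The lowest were Rpl41, the shortest ribosomal protein, at 0.18, Rpl29 at 0.18, Rpl7 and Rpl7a at 0.21 and Rpl12 at 0.22. The closest pair, picked out after the values were seen, was Rpl37 with Rps29 at a rho of 0.74.

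Core genes also varied less between cells than other genes of like level. With mean levels between 1.2 and 3.6 on the log scale, 74 core genes had a median SD of 0.62, from 0.52 for Rpl23a to 0.76 for Rpl37. The other widely detected genes in this range had a median SD of 0.74, and 41.7% of them lay above the most variable core gene.

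Of the 10 genes outside the rule that followed the summed level most closely, among those read in at least 90% of cells, 3 encode elongation factors or a ribosomal protein. Eef1a1, the elongation factor that brings aminoacyl-tRNA, had a rho of 0.71, Eef2, which moves the ribosome along, 0.51, and Tpt1, a growth-related protein with a TOP mRNA, 0.49. Fau, the small subunit protein made as a fusion with a ubiquitin-like protein, had 0.64, the ferritin heavy chain Fth1 0.57 and the prefoldin subunit Pfdn5 0.41. The other 4 of the 10 were predicted genes that share 50-base words with members. Gm10076 at 0.66 and Gm10736 at 0.48 share words with Rpl41, Gm10095 at 0.60 with Rpl21 and Gm3511 at 0.52 with Rps28, so their reads cannot be told apart from those of the members over these stretches. The median over all genes of this breadth outside the rule was 0.02. Named after the values were seen, the lowest were Malat1, a long RNA kept in the nucleus, at -0.38 and Xist at -0.35.

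Gene lists of the translation pathway differed in how far they followed the sum. A rho above 0.2 was found for 10 of the 18 genes on the translation factor list, which had a median of 0.23. These 10 include Tpt1 at 0.49, Naca at 0.37 and Btf3 at 0.23, which are not initiation or elongation factors. Of the 9579 other genes with reads in 10% of cells or more, 1.13% were above 0.2, and their median was -0.01. The genes of the list were read in a median of 93.7% of cells, so this background holds many sparser genes. Among the other genes read in at least 90% of cells the median rho was 0.02. Of the initiation factors on the list only Eif3h at 0.33 and Eif3k at 0.29 were above 0.2. Eif3f had 0.18, Eif3l and Eif3e 0.09 each and Eif1 0.02. Eif4a1 had -0.02, Eif4a2 -0.07 and Eif4g2 -0.08. Of 18 ribosome biogenesis genes only Nop10, a component of H/ACA particles, was above 0.2, at 0.27, and the list had a median of 0.00, with 0.20 for Npm1 and 0.01 for nucleolin (Ncl). None of the 13 genes of growth control was above 0.2, and their median was -0.02, with -0.05 for Mtor, -0.01 for Larp1 and 0.04 for Myc. The 3 genes of the p53 arm, Trp53, Mdm2 and Cdkn1a, ranged from 0.01 to 0.06. Of 76 mitochondrial ribosomal proteins 1 was above 0.2, and the median was 0.02. The biogenesis, growth control and mitochondrial lists were detected in a median of 39.2%, 44.2% and 32.9% of cells, so that their correlations rest on sparse counts. Dissociation genes had a median of 0.00. LEC identity genes had a median of -0.14, and 3 of 8 were above 0.

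The summed share showed no steady relation to depth. Cells held from 7046 to 10727631 reads with a median of 148202, and between 2006 and 7679 genes. The Spearman rho of the share with reads was -0.05 (Pearson r with log reads -0.06, and the same without the 2 farthest cells), and with the number of genes -0.04. The relation was not a line, however. With the cells ordered by reads and split into 4 depth groups of equal size, the median share was 7.51% in the shallowest group, 8.74% and 9.08% in the middle groups and 6.93% in the deepest. The 38 cells of blocks 8 and 9, which were far deeper than the other blocks with medians of 2450280 and 2042790 reads, had medians of 6.27% and 5.60%, and the other blocks lay between 7.54% and 9.84%. Without these blocks the rho was 0.01 over the remaining 94.2% of cells. Within blocks it ran from -0.51 to 0.43 and was below 0 in 8 of 12. The mitochondrial share had a rho of -0.22 with the ribosomal protein share, and the ribosomal RNA rows one of -0.14. Their part in the share was not tested.

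**Figure D2:**
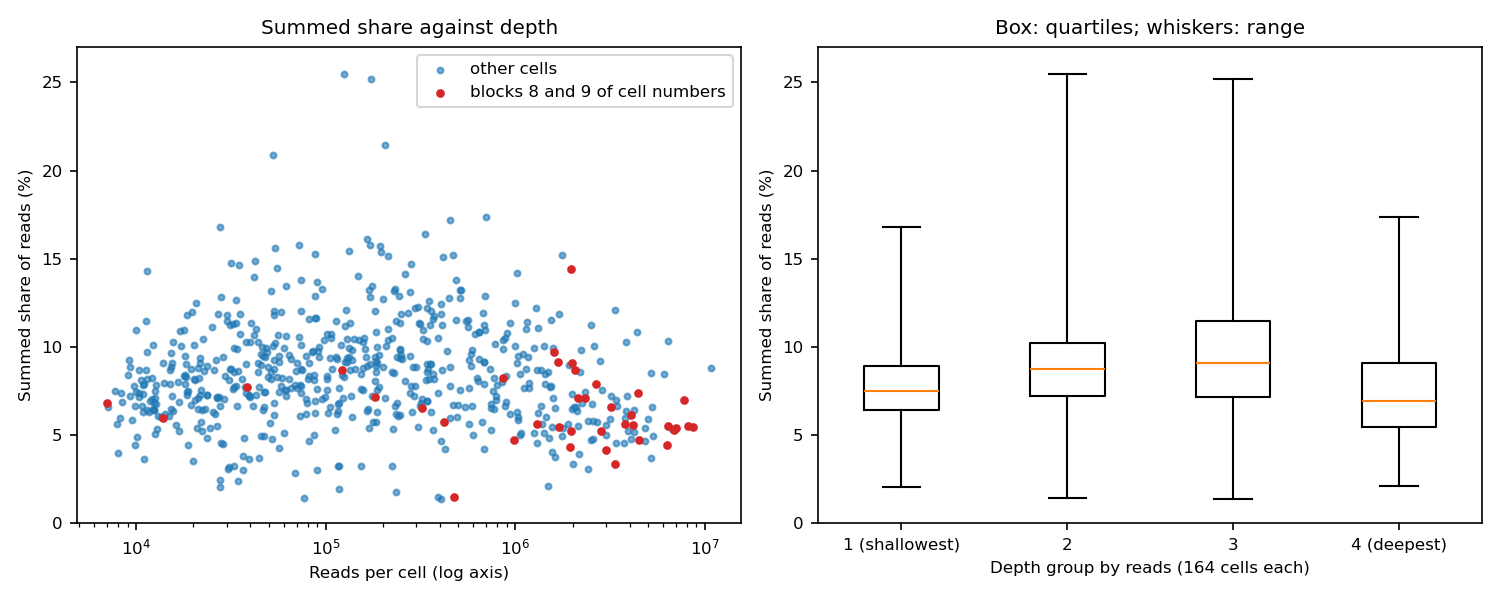
Summed share of reads of the 91 genes in each cell against reads per cell on a log axis, with the 38 cells of blocks 8 and 9 of cell numbers in red, and the same share by depth group, with quartiles as boxes and the range as whiskers. The medians of the groups were 7.51%, 8.74%, 9.08% and 6.93%.

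Within the sum, genes with short transcripts and genes with longer transcripts behaved differently. The level of Rps29, a zinc-binding protein of the small subunit with a transcript of 390 bases, had a rho of -0.55 with reads per cell. Its mean was 10.7 reads per 10000 in the shallowest depth group and 3.11 in the deepest. Rps21 had a rho of -0.45, Rpl38 -0.45, Rpl37 -0.43, Rps28 -0.43 and Rpl31 -0.42, whereas Rpl23a had 0.28, Rpl7 0.24, Rps7 0.24 and Rpl5 0.22. Length did not order all of these, since Rpl37 is among the longer genes, of 600 bases or more, and Rpl23a, with the highest value of any widely detected core gene, among the short ones. Among the 28 core genes with under 600 bases, a limit set after the values were seen, the median rho was -0.17 and 6 were above 0. Among the 47 longer genes it was 0.07 and 35 were above 0. Over the 75 core genes transcript length and rho with depth had a Spearman rho of 0.58 and a Pearson r of 0.61 on log length. Genes are not independent replicates, and all 75 points come from the same cells. The same measure over the other widely detected genes was -0.17, but only 18 of those were shorter than 600 bases, and their median rho with depth was -0.07 against 0.02 for the longer ones.

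The pattern did not rest on the deep blocks. With the mean of each block removed the length relation was 0.58, with medians of -0.15 for short and 0.07 for longer core genes, and short genes had the lower median in all 12 blocks. After each cell was thinned to 20000 reads, which left out 88 cells, it was 0.62, with medians of -0.24 and 0.01. In terms of fold, 17 of the 77 core genes were at least 1.5-fold lower in the deepest than in the shallowest depth group (13 of them short), against 7.58% of the 9666 genes with reads in 10% of cells or more. Rpl23a at 1.54-fold and Rpl7 at 1.51-fold were higher, against 4.32% of all genes. The median ratio was 1.01 for core genes and 0.992 for all. Folds throughout compare mean reads per 10000 with 0.1 added to both. The summed share of short core genes was 2.66%, 3.05%, 3.04% and 1.82% over the depth groups, and that of longer ones 4.89%, 5.66%, 6.01% and 4.98%.

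**Figure D3:**
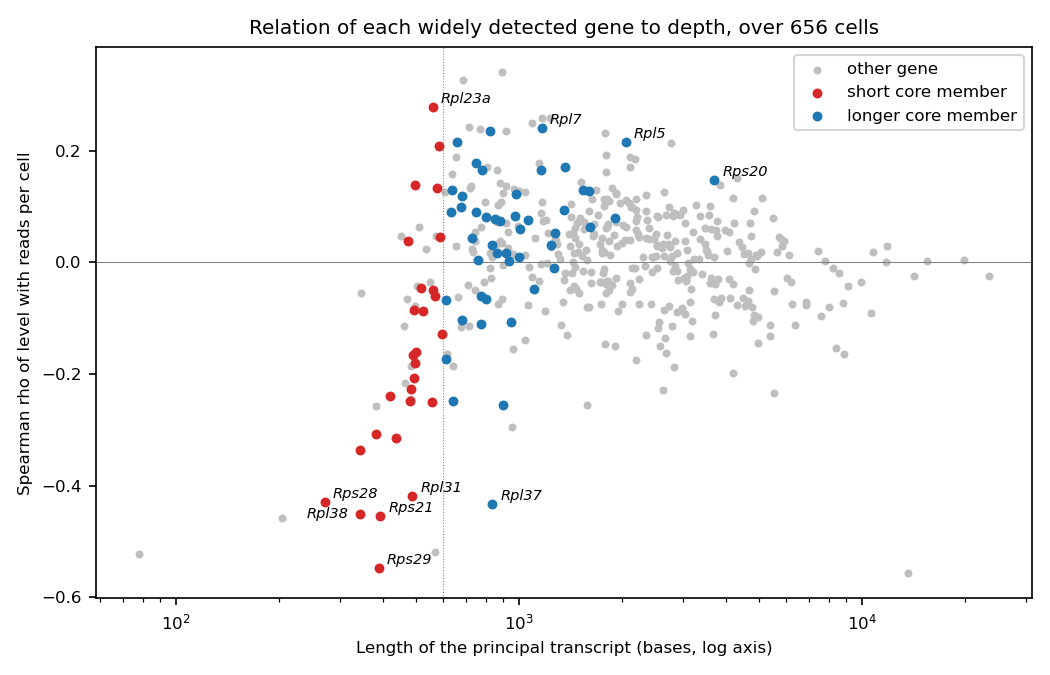
Spearman rho of the level of each gene with reads per cell over all cells, against the length of its principal transcript on a log axis, for 28 short (red) and 47 longer (blue) core ribosomal protein genes and other genes (grey), all read in at least 90% of cells. Short core genes had a median of -0.17 and longer ones of 0.07.

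Paralogues were far rarer than their parent genes, and the median pair differed by 60.1 percentage points of cells. This gap depends on threshold and depth, and was 90.9 points when only values above 1 counted as detected and 90.5 after thinning to 20000 reads. Rps27l, a target of p53, was the most widely detected, in 75.3% of cells (71.8 to 78.6) at 0.65 ± 0.58, against 99.4% and 1.99 ± 0.57 for Rps27, and gave 20.7% of the reads of the pair. Rpl22l1, which can stand in for Rpl22, was read in 70.4% of cells (66.8 to 73.9) at 0.37 ± 0.37 and gave 15.2% of the pair's reads. Rpl7l1 was read in 45.1% (41.3 to 49.02), with 5.67% of the reads of its pair with Rpl7. None of these 3 shared a 50-base word with its parent. Their rho with the parent over cells was 0.02, 0.15 and 0.00, and their rho with the summed level of the other members was 0.18, 0.18 and 0.00.

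Rps27rt, Rpl37rt, Rps3a2, Rps3a3 and Rpl6l are close to the parent in sequence, and their reads cannot be assigned with confidence. Rps27rt shared 91.1% of its words with Rps27 and took 0.987% of the reads of the pair, although it was listed in 49.1% of cells. Rpl37rt shared 81.2% with Rpl37 and took 0.921%. Rps3a2 and Rps3a3 shared 76.7% and 49.6% with Rps3a1 and took 0.432% and 0.323%, and Rpl6l shared 61.8% with Rpl6 and took 0.149%. The rho of their level with reads per cell lay between 0.37 and 0.52. They were read in at most 10.4% of cells in the shallowest depth group and at least 51.8% in the deepest, although the mean reads per 10000 were lower in the deepest, at 0.625-fold for Rps27rt and 0.652-fold for Rpl37rt. Rpl32l shared 19.4% of its words with Rpl32, and Rpl36al, Rpl39l and Rpl3l shared none with their parents. Rpl32l and Rpl36al were each read in 5.49% of cells and Rpl39l, known from testis, in 0.305%. Rpl36al lay over 63.1% of its exon length within Gm49383. Rpl3l, known from heart and skeletal muscle, had no read in any cell, and 3 cells with a read, the limit that a count of 0 leaves, would be a share of 0.457%.

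Rps4l behaved unlike the other paralogues. The gene (ENSMUSG00000063171.4, GRCm38 chr6:148354656-148355598, plus strand), a copy of Rps4x annotated as a transcribed processed pseudogene, was read in 44.1% of cells (40.2 to 47.95), with a mean of 0.48 and an SD of 0.80, the widest of any member. It was at 0 in 55.9% of cells, between 0 and 1 in 19.8% and above 1 in 24.2%, up to 3.42. Among the genes with a mean level within 10% of its own the median detection was 71.2% of cells, and 3 of these genes, or 1.22%, were read in fewer cells than Rps4l. It shared no 50-base word with Rps4x, and over cells its rho with Rps4x was 0.02. In the shallowest depth group it was read in 39.02% of cells (31.5 to 46.9) and in the deepest in 52.4% (44.5 to 60.3), and these intervals overlap. Over the same groups Rps27l went from 53.05% to 89.02%, Rpl22l1 from 45.7% to 89.6%, Rpl7l1 from 24.4% to 62.2%, Rpl13a from 34.1% to 82.9% and Rpl24 from 4.88% to 70.7%. Rps19bp1, which is no paralogue, also rose little in percentage points, from 14.02% (9.10 to 20.3) to 28.7% (21.9 to 36.2). Where Rps4l was read, its median level was 1.30 in the shallowest depth group and 0.134 in the deepest, so many detections in the deepest were at low levels. Over the 12 blocks the detection of Rps4l lay between 33.3% and 50% of cells. Rps19bp1, which also binds the deacetylase SIRT1, was read in 18.4% of cells at 0.11 ± 0.30.

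**Figure D4:**
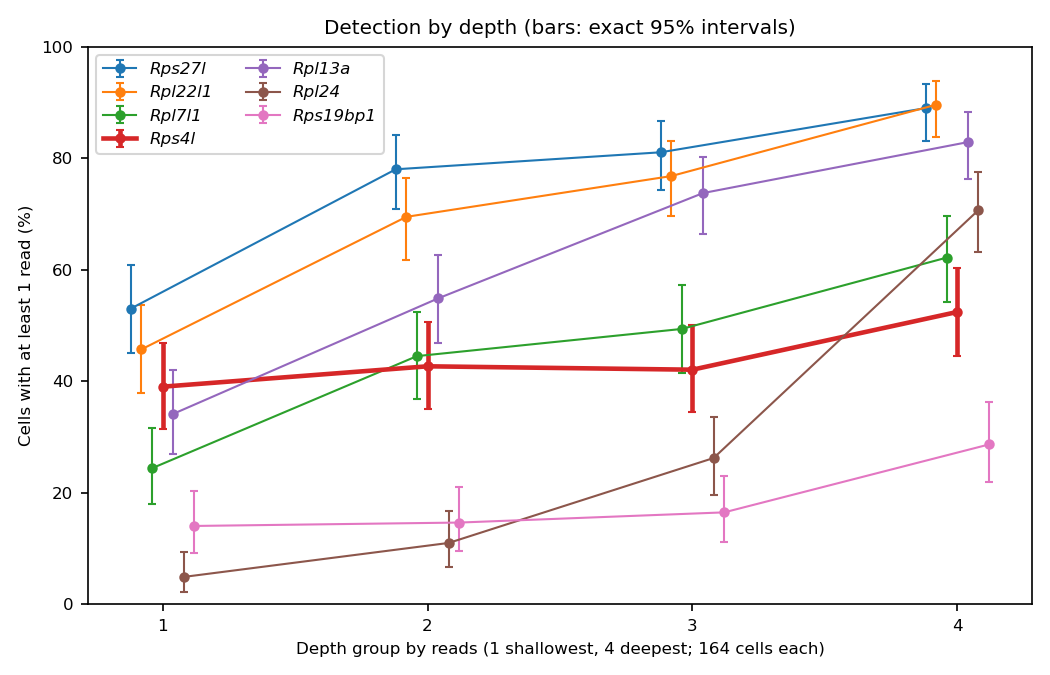
Share of cells with at least 1 read of 7 members in each of the 4 depth groups, with exact 95% intervals as bars. Rps27l went from 53.05% to 89.02% and Rpl24 from 4.88% to 70.7%, whereas Rps4l lay between 39.02% and 52.4% and Rps19bp1 between 14.02% and 28.7%.

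Lymphatic class was rebuilt by clustering these cells alone with the settings the methods give, at a resolution chosen here to give at least 5 clusters, and with depth, the share of mitochondrial reads, a dissociation score and a score of these ribosomal genes regressed out. The 5 clusters are not the authors' annotation, which was not used here, and a cluster may be named only where the markers fixed for that class lead it. Cluster 1 (31.9% of cells) had all 5 Ptx3+ capillary markers raised and is called Ptx3+ capillary-like. Cluster 2 (25.9%) was led by Apoe, Clu and Bmp4, cluster 3 (15.9%) by Tppp3, Fbln7 and Fndc1, cluster 4 (15.1%) by Ptn, Stc1 and Anxa3, and cluster 5 (11.3%) by Fxyd2, Gdf15 and Gdf10, and these stay without a class name because the markers of 2 classes tied or under 3 were raised, or, in cluster 4, because other markers of that class were raised in cluster 3. Since the ribosomal score was regressed, differences in the summed level between these clusters were in part removed from the clustering before it was made.

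The clusters overlapped widely in the summed share. The median was 7.59% in the Ptx3+ capillary-like cluster (quartiles 6.20 to 9.55), 9.06% in cluster 2 (7.14 to 11.3), 8.13% in cluster 3 (5.91 to 9.39), 7.54% in cluster 4 (6.49 to 9.44) and 8.40% in cluster 5 (6.89 to 9.93). The gap between the highest and the lowest median, 1.52 percentage points, was smaller than the SD between cells within any of these clusters, which was at least 2.43. It was 2.63 at resolution 1.5 and 8.04 without the ribosomal score, so the comparison holds for this clustering only. Depth also differed, with median reads of 129390, 186080, 129560, 74065 and 161466 in clusters 1 to 5, and its part was not tested. Of the 77 core genes, 47 had their highest mean in cluster 2 and 44 their lowest in the Ptx3+ capillary-like cluster. The ratio of small to large subunit reads was 0.902 in cluster 2 and between 0.846 and 0.862 in the others.

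By gene, no core member passed a 1.5-fold difference between a cluster and the other cells. Of the 87 members with reads in 10% of cells or more, 1 passed in cluster 4, Rps4l at 1.57-fold, and 1 in cluster 2, Rps19bp1 at 0.633-fold. Over all 9666 genes, 6.05%, 2.96%, 4.87%, 3.91% and 6.49% were at least 1.5-fold higher in clusters 1 to 5, and 4.82%, 6.22%, 8.43%, 5.37% and 10.6% at least 1.5-fold lower. Rps4l had a mean of 0.70 ± 0.89 in cluster 4, where it was read in 54.5% of cells, and of 0.40 to 0.52 in the others, where it was read in 39.2% to 46.5%. Both genes were among the variable genes used for clustering, as was Rpl29, so their differences help to define the clusters and are no test. The widest range of any core gene, noted after the values were seen, was that of Rps3, from 2.74 ± 0.47 in cluster 3 to 3.21 ± 0.61 in cluster 2, and cells of both clusters overlapped.

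Without the ribosomal score in the regression, the cells fell into 5 other clusters, of which the smallest held 20 cells with a high share of ribosomal protein reads. Only 3 of the 91 members, Rpl29, Rps19bp1 and Rps4l, were among the variable genes that grouped these cells. The score left out was built from the members, however, so the values are given without a test. Their median share was 15.2%, from 5.24% to 25.5%, against 8.03% in the other cells, whose highest cell had 17.4%. Of the 87 members, 62 were at least 1.5-fold higher in these cells, 61 of them core, against 13.8% of all genes, and 2, Rpl7l1 and Rps4l, were at least 1.5-fold lower, so that 64 moved in either direction against 68.8% of all genes. Rpsa was 2.66-fold higher, with 2.96 ± 1.15 against 2.46 ± 0.72, Rps2 2.58-fold and Rplp0 2.43-fold, with 3.96 ± 0.46 against 3.06 ± 0.54. Eef1a1 was 2.33-fold and Tpt1 2.28-fold higher. Rpl41 and Rpl13a were not raised, at 0.845-fold and 0.970-fold.

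The same 20 cells also differed in other measures. They had a median of 2530 genes against 3978 in the other cells, although their median reads, 217906 against 136992, were higher. The mitochondrial share was 2.32% against 1.42%, and Malat1 stood at 0.76 ± 0.63 against 3.17 ± 0.55. All 20 had reads of Flt4, Mmrn1, Pecam1 and Cdh5, and 18 of Prox1 and of Pdpn. None had a read of the epithelial list, 6 had a read of the leukocyte list and 12 of the fibroblast list. The summed mean of the leukocyte genes was 1.35 reads per 10000 against 0.471 in the other cells, and that of the fibroblast genes 0.535 against 1.01. Their part in the group was not tested. They came from 10 of 12 blocks with at most 4 from a block, and with the score regressed 17 lay in the Ptx3+ capillary-like cluster and 3 in cluster 2. Whether RNA quality or the loss of nuclear RNA has a part in this group was not tested. Leaving out the 3 members among the variable genes as well gave a smallest cluster of the same 20 cells.

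**Figure D5:**
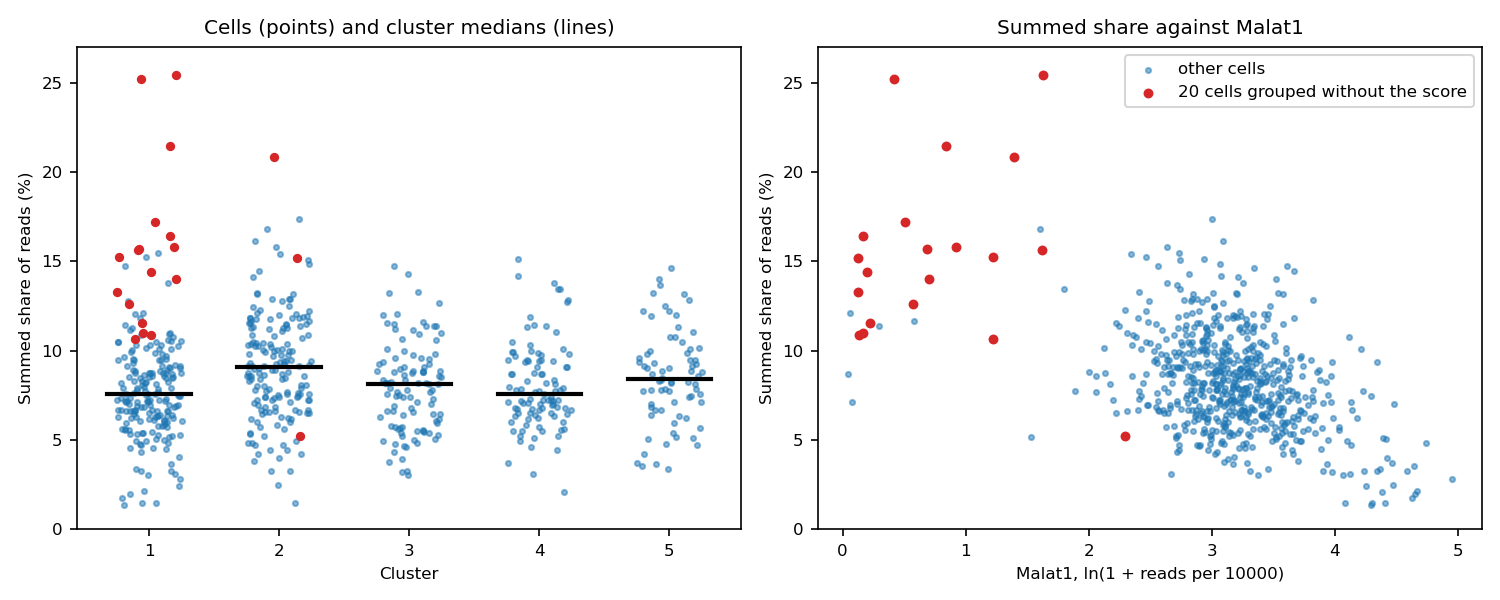
Left, summed share of reads of the 91 genes in each cell by cluster, with cluster medians as lines; right, the same share against the level of Malat1 as ln(1 + reads per 10000). The 20 cells that formed their own cluster without the ribosomal score are in red, with a median share of 15.2% and a mean Malat1 level of 0.76 against 3.17 in the other cells.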

How the data were processed

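The authors aligned Smart-seq3 reads to mm10 with STAR, counted them per gene with featureCounts of Subread and normalised them with Seurat 4.1.0, per the labels and the methods, keeping cells with enough genes and a low mitochondrial share. The deposited values are the natural log of 1 plus reads per 10000 for 23168 genes in 656 cells. The methods name log2, but only as natural logs did the values of every cell turn into whole reads (100% within 0.01), and these reads gave depth, shares and thinned counts. The labels list 1152 cells, of which 496 were not analysed here. No per-sample column was left unused (0). Transcript lengths, overlaps and 50-base words came from GENCODE M21 (GRCm38), matched by symbol for all 91 genes, with 1 principal transcript per gene. Cells were clustered in Seurat 5.3.0 (R 4.3.3) with 2000 variable genes, 15 principal components and the lowest resolution, in steps of 0.1, giving at least 5 clusters. Correlations are Spearman's (scipy 1.17.1). Each GEO sample is 1 cell with no animal named, so no test was run and no p-value is given. Scripts were tested on simulated data.

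The members and lists were chosen with earlier results of these data known. The genes named were the 5 highest and 5 lowest core genes per kilobase and by mean rho, paralogues with parents, members at 0 or past 1.5-fold in a cluster, those with roles outside the ribosome, and the 10 other genes most like the sum; any others are said to have been chosen after their values were seen or illustrate a count. Some genes that the rule would name are not reported here.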

Additional observations from a re-analysis of the deposited data

How the results depend on the processing

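Of 44 alternatives over 8 results, 35 left the value within its spread over the 12 blocks, its exact interval or 1.5 times the value, and 9 did not. Some of the 35 could hardly move. Leaving out the paralogues could not change the pairwise rho or the subunit ratio, since no paralogue entered either. The rho of the share with depth ran from -0.51 to 0.43 within blocks, so nearly any alternative for it fell inside that spread. The median detection of members, 98.8% of cells, was 92.7% with a value above 1 as the threshold, 97.5% after thinning to 20000 reads and 99.6% once the 25% of cells poorest in genes were left out. The gap between the highest and lowest cluster median, 1.52 percentage points, was 8.04 without the ribosomal score and 2.63 at resolution 1.5. It was also 8.04 without the score and with the 3 members among the variable genes left out. Without the score and without its smallest cluster of 20 cells it was 1.80, an alternative chosen after seeing the data. The ratio of the 90th to the 10th percentile of levels per kilobase, 4.67, was 8.36 with the merged length of all annotated exons in place of the principal transcript. The median gap between parents and paralogues, 60.1 percentage points, was 90.9 with the threshold above 1 and 90.5 after thinning. The rho of the share with depth was between -0.19 and 0.01 over its alternatives. The value of 0.01 was the one without blocks 8 and 9, where the Pearson r with log reads was -0.008. The median share ran from 7.24% to 8.61%, the median pairwise rho from 0.29 to 0.34 and the subunit ratio from 0.870 to 0.874. No paired analysis was possible because the cells form a single group. Depth limits the detection of the rare paralogues most, and with no animal named none of these values has a replicate.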
